A study of Drosophila melanogaster with 2 samples.

Results

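The clock genes described here are the 10 genes per, tim, Clk, cyc, cwo, cry, dco, sgg, jet and CkIIalpha, found by gene symbol in the Ensembl annotation of the fly genome, out of 13945 protein-coding genes on the 6 chromosome arms analysed. They were chosen because PAR-type basic leucine zipper (bZIP) factors act in the circadian clock, and the rule uses no measured value. The choice was made with earlier results of these data known. What was measured is the chromatin binding of CG7786, a predicted PAR-type bZIP protein, by ChIP-seq. The chromatin came from whole fly embryos of mixed sex, collected from 0 to 24 hours of age. The line carries a transgene that expresses CG7786 with eGFP at its C-terminus. There is 1 group with 2 libraries, labelled biological replicates 2 and 3, and no second genotype, age or time of day. One label says that the precipitation used an antibody to GFP and another names CG7786 as the target, and the labels do not state which promoter drives the fusion.

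The fly clock is a feedback loop. The bHLH-PAS proteins CLK and CYC bind E-boxes, with the letters CACGTG, and activate per and tim, whose proteins return to the nucleus and inhibit CLK and CYC. In a linked loop the bZIP repressor VRI and the PAR-type bZIP activator PDP1 act on Clk through sites related to TTATGTAA, while the bHLH-Orange repressor CWO competes at E-boxes. Kinases set the pace by phosphorylating PER and TIM, and light resets the clock when the photoreceptor CRY and the F-box protein JET drive the breakdown of TIM.

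Each gene was given a span made of its body plus 2000 bp upstream. Summits were read from the authors' list of reproducible peaks, made by the irreproducible discovery rate procedure (IDR), and from longer relaxed lists of the pooled reads and of each replicate. The IDR list holds 4045 peaks and each relaxed list 30000 entries. The strength of an entry is the authors' signal value, a score whose scale belongs to its own list. In the pooled list it lay between 79.5 and 2909 for IDR peaks, with a median of 130.05. The IDR peaks are exactly the strongest pooled entries, so a gene without an IDR summit still shows how far below it fell. Read depth is unknown, and with 1 group no comparison between conditions and no test was possible. Peak lists hold no expression values, so the labelled tissue could not be checked against marker genes.

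The reproducible peaks fell on the kinase genes sgg and dco and on the repressor gene cwo. The other 7 genes, among them per, tim, Clk and cyc, had none. In all, 7 IDR summits lay in the 10 spans. A summit lay within 500 bp of an own transcription start site (TSS) in 2 of 10 clock genes, where the share over all protein-coding genes was 19.5%. A summit lay in the span of 3 of 10 clock genes, against 27.7% of all genes, so by this rule the set as a whole was close to the background. The share of all genes depended on the rule. It was 11% with the gene body alone, 13.5% without summits near a TSS of another gene and 16.7% with the 2022 strongest IDR peaks. With the 8090 strongest pooled entries it was higher, at 42.2%. The count of clock genes stayed at 3 under each of these rules. The count was 4, with cyc added, with any base of the peak interval, where the share of all genes was 28.8%. It was also 4 with 5000 bp upstream, where that share was 35.2%. Distal summits, in the span but over 500 bp from any TSS, occurred in 2 of 10 clock genes, against 7.6% of all genes. These were cwo and sgg, which are 12495 and 45602 bp long, where the median over all genes is 2166 bp. The distal count was not set against genes of like length. By role, the kinase genes held 5 IDR summits in 2 of 3 genes, the transcriptional loop held 2 in 1 of 5, and the light input genes cry and jet held 0. Among genes of like length, the mean shares with a span summit were 43.4%, 39.2% and 27.2% for these roles. With so few genes in each role, 1 gene changes the picture, and no difference between roles was tested. In whole embryos, a site used in few cells and a weak site used in many cannot be told apart.

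**Figure D1:**
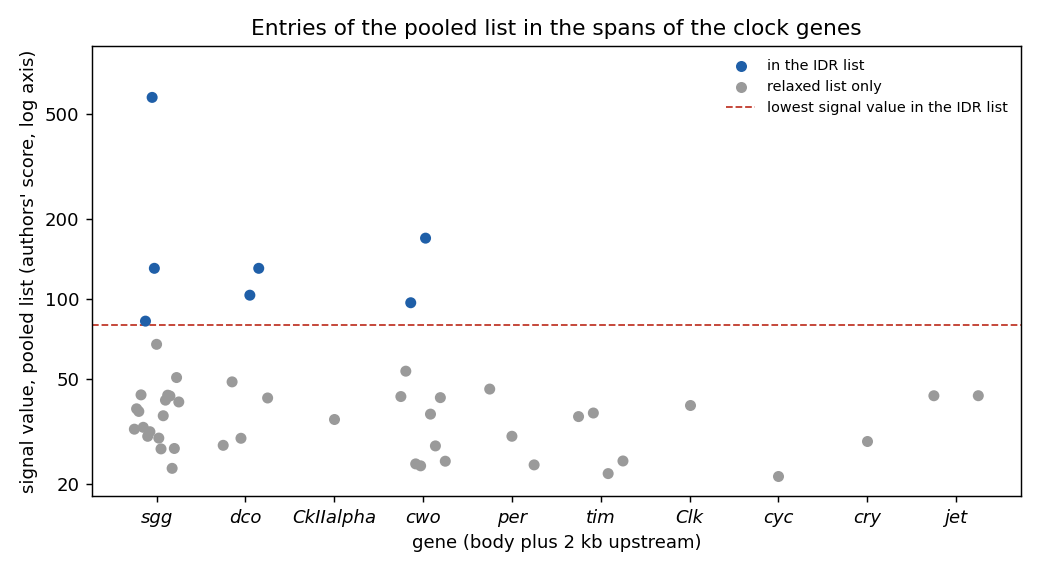
Signal value (the authors' score in the pooled list, log axis) of every pooled entry whose summit lies in the span of each clock gene, 1 point an entry. Blue points are in the IDR list and grey points are in the relaxed list only. The red dashed line at 79.5 is the lowest signal value in the IDR list. The 7 blue points belong to sgg, dco and cwo, and the highest, at 576, is in sgg.

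sgg encodes the GSK-3 kinase Shaggy, which phosphorylates TIM and is also a core component of Wingless signalling. It held the strongest peak of the 10 genes. The gene lies on the X chromosome at 2633952 to 2679553 of dm6, forward strand, and its 45602 bp carry 19 annotated transcripts from 11 TSSs. Of its 21 pooled entries, 3 were IDR peaks. The strongest, with its summit at 2646434 in an intron 203 bp upstream of the TSS of transcript sgg-RQ, had a pooled signal of 576 and rank 107 of 30000. It was at rank 98 in replicate 2, with a signal of 241, and at rank 119 in replicate 3, with a signal of 331. The placement was thus almost the same in both libraries.

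The other 2 IDR summits of sgg were weaker and distal. The one at 2647600, 963 bp downstream of the same TSS, had a pooled signal of 130.4 and stood at rank 3687 in replicate 2 and at rank 1451 in replicate 3. The one at 2638822, 1397 bp downstream of the TSS of sgg-RC, had a signal of 82.4, near the bottom of the IDR list, and stood at rank 3727 in replicate 2 and 4505 in replicate 3. An entry at 2648152, 1515 bp downstream of the sgg-RQ TSS, fell just below the list with a signal of 67.4 and pooled rank 5014, at rank 4019 in replicate 2 and 4078 in replicate 3. The strong peak thus had weaker summits on the other side of the sgg-RQ TSS. The remaining 17 sgg entries had signals between 22.9 and 50.5, including one at 2633967, 15 bp from the TSS shared by 6 transcripts, with 32.2.

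sgg is long, and long genes meet more summits. All protein-coding genes were split into 10 classes of equal size by length, and among the 1395 genes in the class of sgg 50.7% had an IDR summit in the span. A strongest entry as high as that of sgg was rarer, at 2.65% of the genes of its class and 1.23% of all protein-coding genes. In that class, 112 other genes also had 3 IDR summits. The first 5 of them by symbol are Ac13E, Antp, arg, Asator and Atg1, a likeness in 1 count only.

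The windows of 200 bp around the 3 IDR summits of sgg are printed because they include the strongest peak of the 10 genes. They are read 5′ to 3′ on the gene's strand from the Release 6 sequence, in lower case. None holds a match to the E-box, PAR, C/EBP, AP-1, DRE, GAGA or Zelda letters defined further on, so no base is in capitals.
sgg, summit 2646434, chrX:2646334-2646533: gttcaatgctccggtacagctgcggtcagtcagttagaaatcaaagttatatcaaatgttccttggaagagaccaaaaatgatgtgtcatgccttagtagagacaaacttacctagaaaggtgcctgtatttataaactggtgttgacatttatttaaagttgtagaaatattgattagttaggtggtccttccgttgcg
sgg, summit 2647600, chrX:2647500-2647699: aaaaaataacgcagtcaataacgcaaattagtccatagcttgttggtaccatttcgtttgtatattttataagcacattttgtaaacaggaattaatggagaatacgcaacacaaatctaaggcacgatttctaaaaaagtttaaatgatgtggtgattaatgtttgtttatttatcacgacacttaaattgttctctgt
sgg, summit 2638822, chrX:2638722-2638921: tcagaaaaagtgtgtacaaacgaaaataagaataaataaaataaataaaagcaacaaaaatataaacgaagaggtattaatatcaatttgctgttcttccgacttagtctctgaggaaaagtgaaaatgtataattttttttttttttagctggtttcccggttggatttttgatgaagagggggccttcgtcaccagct

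dco, also known as double-time, encodes the casein kinase 1 that phosphorylates PER and marks it for breakdown. It was the only gene of the 10 with an IDR summit close to the TSS that most of its transcripts share. The gene lies on arm 3R at 31054085 to 31061210, reverse strand, with 5 transcripts from 2 TSSs and 6 pooled entries. The upstream summit, at 31061515, lay in intergenic sequence 305 bp upstream of the TSS shared by 4 transcripts. Its pooled signal was 130.4 and its pooled rank 2019, with rank 2097 in replicate 2 and 2193 in replicate 3. The inner summit, at 31060410, lay in the 5′ UTR, 363 bp downstream of the TSS of dco-RE. It had a pooled signal of 103, with rank 2194 in replicate 2 and 3445 in replicate 3. The dco promoter region was therefore marked on both sides of the main start site, with the upstream summit near the median signal of the IDR list and the inner one below it. The 4 entries below the list had signals between 28.0 and 48.6. Among the genes of its length class, 42.4% had an IDR summit in the span and 25.5% had a strongest entry as high.

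The upstream dco window is printed on the gene's strand. Its capitals mark 3 copies of AGGTGGCGC, read on either strand, letters found in the core of the binding motif of the insulator protein CTCF. This motif was searched only after the window had been read.
dco, summit 31061515, chr3R:31061415-31061614: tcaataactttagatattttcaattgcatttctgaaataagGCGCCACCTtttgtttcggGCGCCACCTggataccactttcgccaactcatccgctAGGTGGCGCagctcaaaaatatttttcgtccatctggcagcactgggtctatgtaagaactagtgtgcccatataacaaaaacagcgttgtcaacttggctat
One copy, at 31061509 to 31061517, covers the summit base, and the others lie 31 and 50 bp from it. At least 1 copy occurred in 33 of the 4045 IDR windows, or 0.816%, and in 87 of 25955 pooled windows below the IDR list, or 0.335%. The dco window was the only one of all IDR windows with 3 copies, and 0 windows below the list had 3. A match in letters is not a binding site, and CTCF was not measured here.

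CkIIalpha, the catalytic subunit of casein kinase 2, which phosphorylates PER and TIM, had no IDR summit. The gene lies on arm 3L at 23097072 to 23103460, with 7 transcripts from 5 TSSs, and none of them had an entry within 500 bp in the pooled list. The only entry in its span, at 23095530, lay 59 bp from the TSS of RpL10, a ribosomal protein gene, and 1542 bp upstream of CkIIalpha. Its signal was 35.1. Replicate 3 listed it at rank 7611, and replicate 2 had 0 entries in the whole span. The nearest IDR summit was 216199 bp beyond the span, at Chro.

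cwo encodes the bHLH-Orange repressor of the loop and held 2 IDR summits, both inside the gene. The gene lies on arm 3R at 10388258 to 10400752, forward strand, with 3 transcripts from 1 TSS and 10 pooled entries, the densest coverage of the 10 genes at 0.69 entries per kb, against 0.224 per kb over all arms. The stronger summit, at 10393862 in an intron 5604 bp into the gene, had a pooled signal of 169 and rank 1317. Its rank was 1363 in replicate 2, with a signal of 67.6, and 1288 in replicate 3, with a signal of 103. The weaker summit, at 10391160, 2902 bp into the same gene and also in an intron, had a pooled signal of 96.7, with rank 3089 in replicate 2 and 3416 in replicate 3.

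At the cwo TSS itself the signal was lower. The entry at 10388340, 82 bp from the TSS, had a pooled signal of 42.8 and rank 9525, and the entry at 10388890 had 53.4. Replicate 2 placed the TSS entry at rank 11476 and replicate 3 at rank 8984, both outside the strongest 4045. The entry at 10388890 stood at rank 3965 in replicate 2, inside the strongest 4045, and at rank 14706 in replicate 3. In its length class, 18.6% of genes had a strongest entry as high as cwo, so its intronic peaks were moderate.

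The cwo windows are printed because cwo is the only gene of the transcriptional loop with reproducible peaks. Capitals, where present, mark GAGAG on either strand, the letters of the GAGA motif. The short stretch shows the E-box nearest to a cwo IDR summit, 343 bp away.
cwo, summit 10393862, chr3R:10393762-10393961: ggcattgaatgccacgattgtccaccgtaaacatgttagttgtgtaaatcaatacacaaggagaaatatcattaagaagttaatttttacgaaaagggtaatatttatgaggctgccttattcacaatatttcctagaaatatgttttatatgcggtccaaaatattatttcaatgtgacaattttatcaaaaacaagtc
cwo, summit 10391160, chr3R:10391060-10391259: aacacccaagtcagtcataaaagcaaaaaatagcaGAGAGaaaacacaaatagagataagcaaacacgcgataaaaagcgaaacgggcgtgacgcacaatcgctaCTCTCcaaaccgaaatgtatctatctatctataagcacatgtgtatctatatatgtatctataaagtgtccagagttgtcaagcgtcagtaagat
cwo, E-box, chr3R:10390802-10390831: ttacgtatacgtCACGTGtgccgctcaatt

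**Figure D2:**
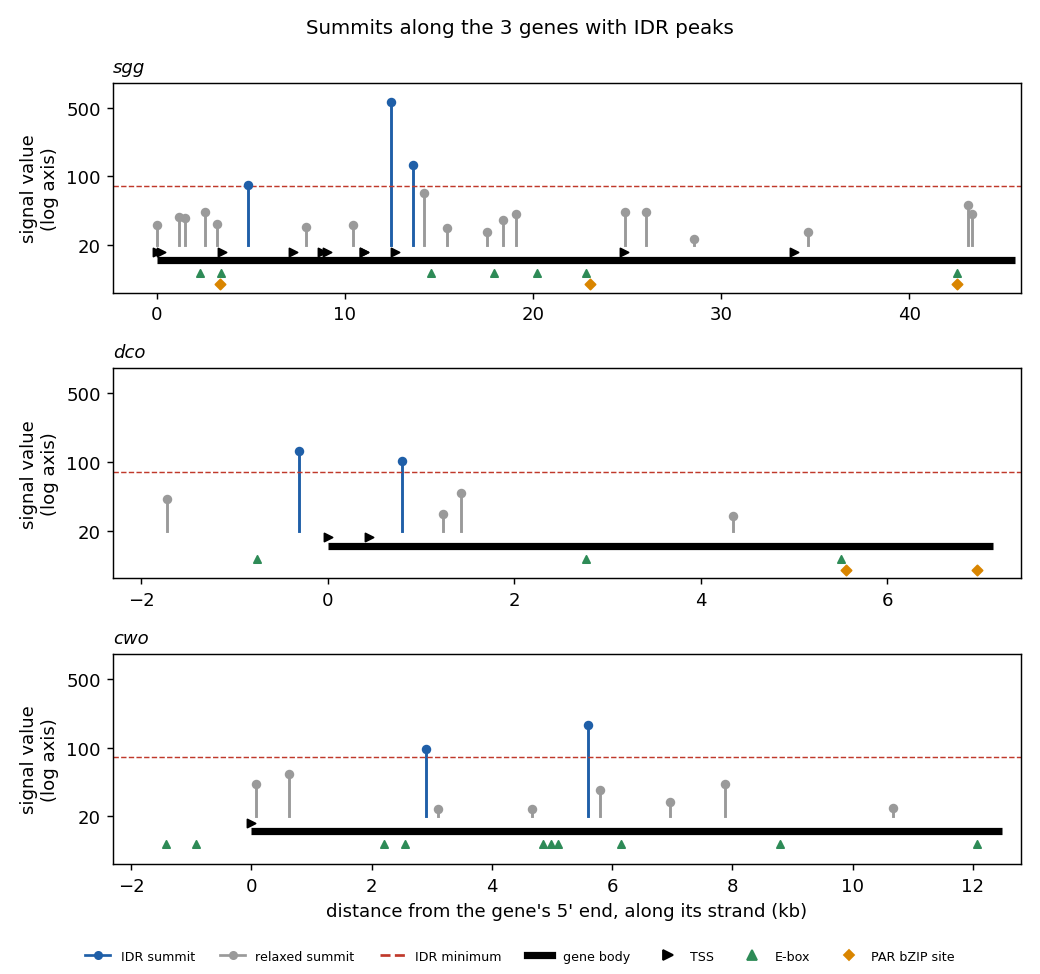
Maps of sgg, dco and cwo, drawn along each gene's strand, with distance from the gene's 5′ end in kb on the horizontal axis and the pooled signal value on a log axis. Blue stems are IDR summits, grey stems are summits of the relaxed list only, the red dashed line is the IDR minimum, black bars are gene bodies and black arrowheads are TSSs. Green triangles mark E-boxes and orange diamonds PAR bZIP sites. The tallest stem, at 576, stands just upstream of an internal TSS of sgg, and no triangle or diamond lies within 100 bp of a blue stem.

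per and tim encode the negative limb of the loop, and neither had an IDR summit. per lies on the X chromosome at 2685580 to 2692780, forward strand, and had 3 pooled entries. The one at 2685417, 163 bp upstream of the only TSS, had a pooled signal of 45.7 and rank 8585. It was listed by replicate 3 at rank 5380, while replicate 2 had no entry within 200 bp. The per promoter was therefore seen in 1 library only. The other per entries lay in coding exons, with signals of 30.3 and 23.6. The nearest IDR summit, 11108 bp beyond the span at Ugalt, was the third strongest of the whole list, with a signal of 2572.

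tim lies on arm 2L at 3493986 to 3508119, reverse strand, with 10 transcripts from 3 TSSs, and had 4 pooled entries. The strongest, at 3507851 in the 5′ UTR, had a signal of 37.1 and rank 11979, with rank 11185 in replicate 2 and 16899 in replicate 3. The one at 3506782, in an intron 436 bp from the TSS of 6 transcripts, had a signal of 36.0 and was listed by replicate 3 only. The last 2, at 3508055 and 3508705, had 21.9 and 24.5 and were listed by replicate 2 only. Of these, 3508705 lay within 500 bp of the TSSs of lncRNA:CR45299 and asRNA:CR45300. The replicate 2 entry at rank 11185 was the match of both 3508055 and 3507851. The nearest IDR summit stood 15470 bp away, at Thor.

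Clk and cyc encode the activators, and both had a single weak pooled entry. Clk lies on arm 3L at 7763233 to 7775603, reverse strand. Its entry at 7775797, 194 bp upstream of the TSS of 3 transcripts, had a signal of 39.8 and pooled rank 10652, with rank 9815 in replicate 2 and 16217 in replicate 3. cyc lies on arm 3L at 19813770 to 19815938, reverse strand. Its entry at 19815827 had a signal of 21.5 and rank 29775 of 30000, and neither replicate listed a summit within 200 bp. An IDR summit lay 150 bp beyond the cyc span, at 3L position 19818088, with a signal of 212. It stood 86 bp from the TSS of Deaf1 and counts for cyc only when the span or the peak is drawn wider.

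cry and jet, the light input genes, had no IDR summit and 1 weak entry each near the own TSS. cry lies on arm 3R at 19212154 to 19215442, forward strand. Its single entry, at 19211843, 311 bp upstream of the TSS and within 500 bp of lncRNA:CR46393, had a signal of 29.1, with rank 16078 in replicate 2 and 27923 in replicate 3. jet lies on arm 2L at 4948206 to 4949784, reverse strand. It had 1 entry 109 bp upstream of its TSS, at 4949893, and 1 at 4950626, 141 bp from the TSS of the protease gene Jon25Biii, both with a signal of 43.1. The first was listed by replicate 3 only, at rank 8431, and the other by replicate 2 only, at rank 5397. In the length classes of per, tim, Clk, cyc, cry, jet and CkIIalpha, between 38.7% and 76.0% of genes had a strongest entry at least as high as theirs.

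**Figure D3:**
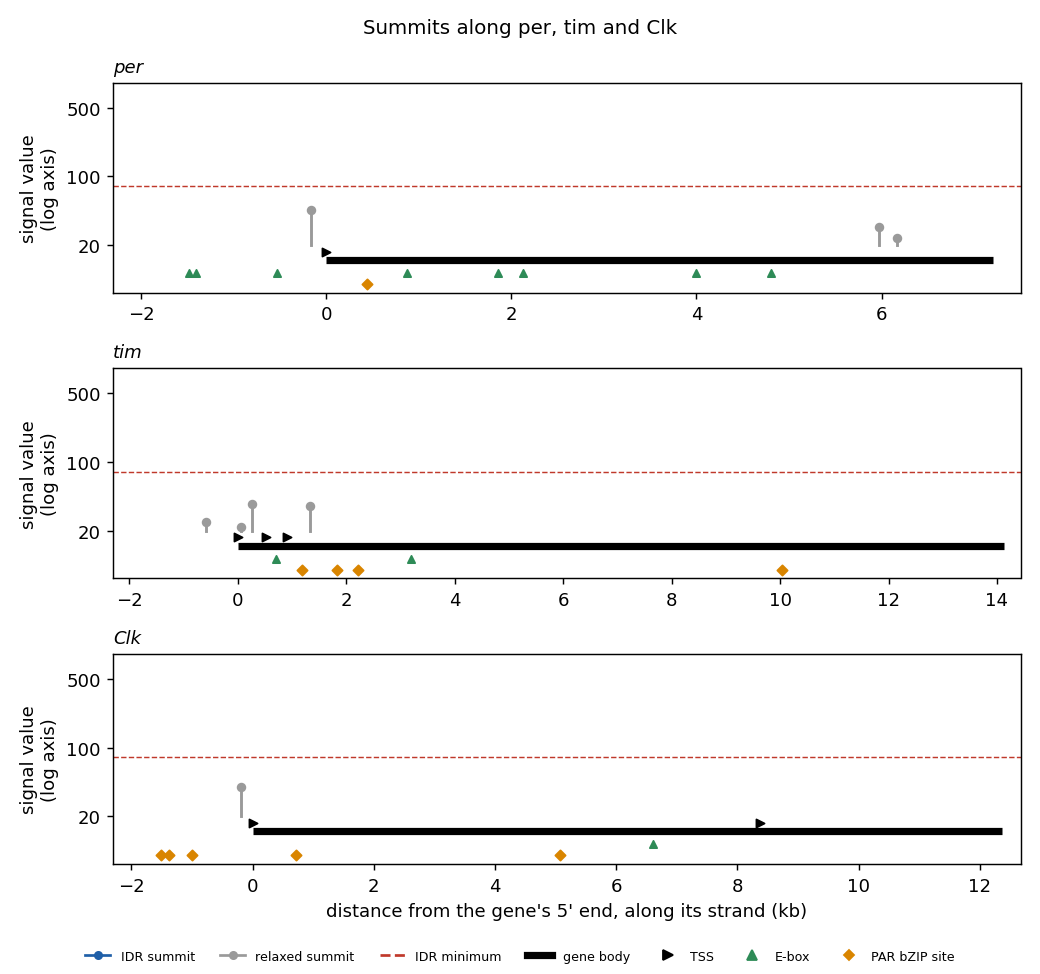
Maps of per, tim and Clk, with the same axes and marks as the maps of sgg, dco and cwo. The grey stems are summits of the relaxed list only, and the highest, at 45.7, stands 163 bp upstream of the per TSS. No stem reaches the red dashed line, the lowest IDR signal of 79.5. Green triangles are E-boxes and orange diamonds are PAR bZIP sites.

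The per and Clk promoter windows are printed as the strongest entry of each of these loop genes, with GAGAG on either strand in capitals. The short stretches show the per E-box at −527 bp from the TSS and the Clk site at −994 bp whose 8 letters match a PAR-type site, each with its match in capitals. An upstream E-box of per is the textbook site of CLK and CYC action, and Clk is the textbook target of VRI and PDP1. The per E-box lay 364 bp from the nearest pooled summit and the Clk site 800 bp, so neither fell inside a printed window.
per, summit 2685417, chrX:2685317-2685516: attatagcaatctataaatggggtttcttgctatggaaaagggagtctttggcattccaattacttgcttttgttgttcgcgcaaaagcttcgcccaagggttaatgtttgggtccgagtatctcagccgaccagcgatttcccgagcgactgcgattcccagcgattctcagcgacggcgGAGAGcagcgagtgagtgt
per, E-box, chrX:2685038-2685067: aaagccgccgctCACGTGgcgaactgcgtg
Clk, summit 7775797, chr3L:7775697-7775896: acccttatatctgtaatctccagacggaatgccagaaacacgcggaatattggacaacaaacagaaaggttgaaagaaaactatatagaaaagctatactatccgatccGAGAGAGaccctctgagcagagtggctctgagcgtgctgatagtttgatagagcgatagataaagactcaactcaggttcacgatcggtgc
Clk, PAR site, chr3L:7776581-7776612: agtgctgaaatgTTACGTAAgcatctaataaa

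The clock genes were widely listed in the relaxed lists, and outside sgg, dco and cwo only with weak pooled entries. The pooled relaxed list includes the IDR peaks, so its counts and shares are not of weak entries alone. The dco entries within 500 bp of an own TSS, at 31060410 and 31061515, are both IDR peaks. In the pooled relaxed list 9 of 10 clock genes had a summit within 500 bp of an own TSS, against 53.4% of all genes, and 10 of 10 had one in the span, against 72.9%. A distal pooled summit occurred in 4 of 10 clock genes, against 50.8% of all genes. Replicate 2 listed a TSS summit for 6 of 10 clock genes, against 50.3% of all genes, and a span summit for 9, against 74.3%. Replicate 3 listed a TSS summit for 8 of 10, against 54.1%, and a span summit for 10, against 72.3%. The median strongest pooled signal was 41.5 over the 10 clock genes and 38.0 over all protein-coding genes, which are shorter, with a median length of 2166 bp against 7163.5 bp for the clock genes.

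Gene length moved with these counts. An IDR summit lay in the span of 3 of 10 clock genes and at the TSS of 2 of 10, against mean shares of 38.0% and 25.7% in their own length classes. A pooled entry lay in the span of 10 of 10 clock genes and at the TSS of 9 of 10, against 87.3% and 67.7% in their classes. These shares rest on 10 genes, so 1 gene moves each by 10 percentage points.

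**Figure D4:**
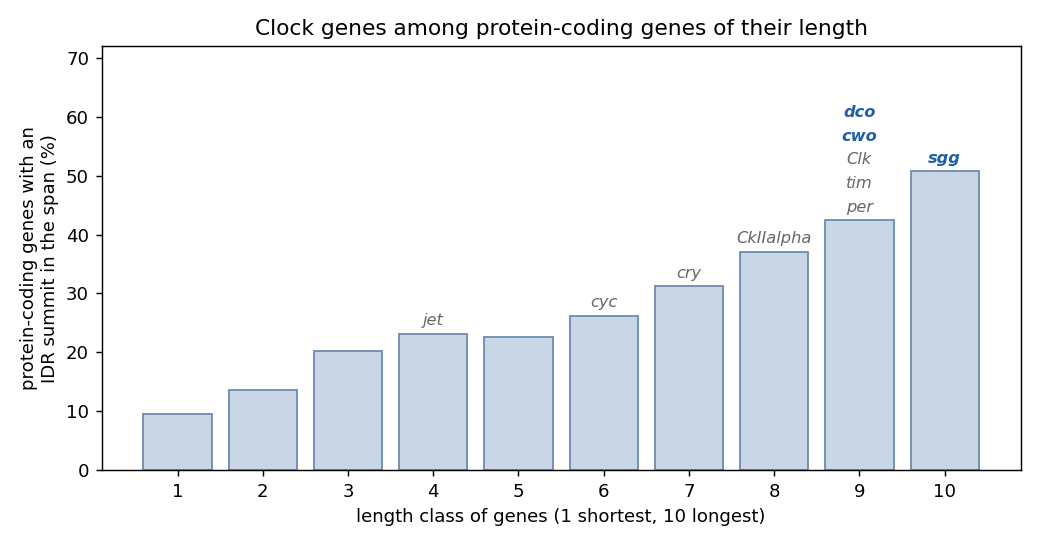
Share of protein-coding genes with an IDR summit in the span (%, vertical axis) by length class, from the shortest to the longest. Each bar is 1 of 10 classes of equal size, and clock genes are written above the bar of their class, in bold blue where they have an IDR summit. The share is 9.61% in the shortest class and 50.7% in the longest, where sgg lies.

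The IDR list was derived from both replicates, so the ranks of the 7 summits of sgg, dco and cwo in them are a description. Below the IDR list the clock genes had 43 pooled entries, and the pool holds the reads of both libraries. Of these entries, 25 had an entry within 200 bp in both replicate lists, or 58.1%, against 42.4% of all pooled entries below the IDR list. The clock entries were also stronger, with a median signal of 36.0 against 30.2, and recurrence at equal signal was not tested. In the spans of sgg, dco and cwo the count was 21 of 30, and in those of the other 7 genes it was 4 of 13. Some entries close to an IDR summit share its replicate entry, as the cwo entry at 10391359 does in both replicates and the one at 10394065 in replicate 3. Neighbouring entries below the list can also share a replicate entry. The dco entries at 31059777 and 31059979 do so in replicate 3. In replicate 2 the sgg entries at 2677090 and 2677301 do so, as do the tim entries at 3507851 and 3508055. The 21 therefore do not all rest on separate replicate entries. Of the 13 entries of the other 7 genes, 3 were in replicate 2 only, 5 in replicate 3 only and 1 in neither, and their signals ran from 21.5 to 45.7.

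**Figure D5:**
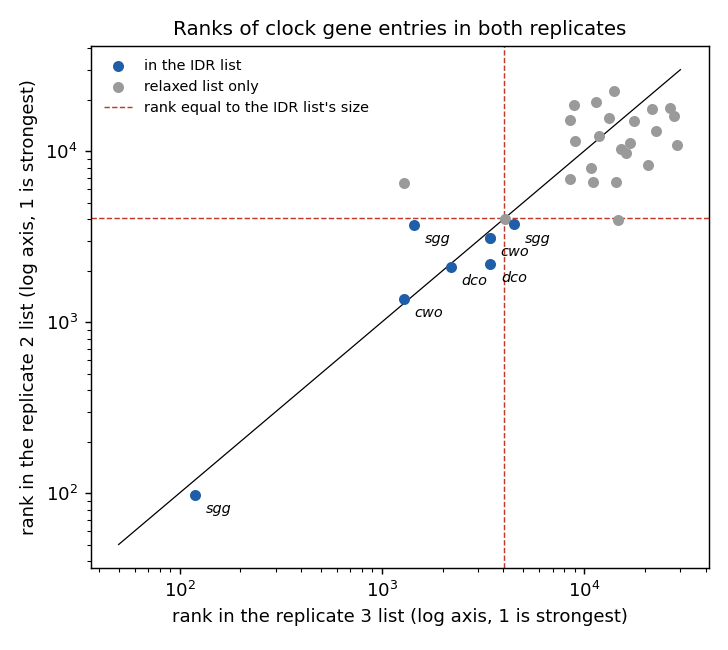
Rank in the replicate 2 list against rank in the replicate 3 list (both log axes, 1 is the strongest) for each clock gene entry of the pooled list with an entry within 200 bp in both. Blue points are IDR summits, labelled by gene, and grey points are in the relaxed list only. The black line marks equal ranks and the red dashed lines mark rank 4045. The strongest sgg summit, at ranks 98 and 119, stands apart from all others.

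The letters that clock factors and PAR-type proteins recognise were not found in the 200 bp windows of these summits. In windows of 200 bp, with both strands read, 0 of 7 clock IDR windows held the E-box CACGTG, against 2.5% of all IDR windows, and 0 of 43 below the IDR list, against 2.95%. For the PAR letters TTACGTAA or TTATGTAA the counts were 0 of 7, against 1.95%, and 0 of 43, against 1.29%. A count of 0 of 7 has an exact 95% Clopper-Pearson interval of up to 41.0%, so 7 windows cannot show a difference from shares this low. At shares of 2.95% and 1.29%, a count of 0 of 43 says little as well. The C/EBP letters TTGCGCAA and the letters of the early activator Zelda, CAGGTAG, were in 0 of 7 and 0 of 43 windows. Over all IDR windows and all windows below the list the shares were 0.222% and 0.37% for C/EBP and 0.964% and 1.25% for Zelda, so low that a count of 0 says little. TATCGATA, the DRE bound by DREF, was also in 0 of both, against 4.94% of all IDR windows and 1.53% of all below. The AP-1 letters TGANTCA were in 0 of 7 clock IDR windows, against 5.02% of all, and in 3 of 43 below, or 6.98%, against 4.02%. GAGAG was in 1 of 7 clock IDR windows, against 23.3% of all, and in 15 of 43 below, or 34.9%, against 24.3%. GC content of the 7 IDR windows ran from 30.0% to 45.0%, with a mean of 36.6%, against 37.8% over all IDR windows.

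The same letters were present elsewhere in the clock genes. The 10 spans held 35 E-boxes and 17 PAR-type sites, and 0 of either lay within 100 bp of any pooled summit. This largely restates the window counts above, and no share over all genes was taken. cwo held 10 E-boxes, per 8 and sgg 7, while Clk held 5 PAR-type sites and tim 4. The tim site nearest to a summit lay 147 bp from the entry at 3506782. Upstream of the sgg-RC TSS a PAR-type site at −88 bp and an E-box at −63 bp stood side by side, 179 and 204 bp from an entry at 2637158 with a signal of 32.8. This pair is printed with both matches in capitals.
sgg, PAR site and E-box, chrX:2637321-2637376: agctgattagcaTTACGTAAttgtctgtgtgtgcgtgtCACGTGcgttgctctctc
In promoter windows from 250 bp before to 50 bp after a TSS, 2 of 28 clock TSSs held an E-box and 2 held a PAR-type site. Over all 19607 such windows of protein-coding genes the shares were 4.01% and 2.49%.

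A list of 22 other genes of the clock and its output, chosen by name, had more IDR summits than the 10 genes above. Both lists were drawn up with earlier results of these data known, so the contrast between them is a description only. A TSS summit occurred in 11 of 22, or 50.0%, against 24.9% in genes of the same length classes, and a span summit in 15 of 22, or 68.2%, against 42.5%. They held 30 IDR summits, 15 of them distal, and their median strongest pooled signal was 119.8. No test of this difference was made, and these genes are longer, with a median of 13320.5 bp.

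The linked bZIP loop was among them. vri had IDR summits of 166, 124 and 84.8, with the one of 124 lying 199 bp upstream of the TSS of vri-RC. Pdp1, the fly's PAR-type clock activator, had 3 intronic distal summits of 299.6, 135 and 106. Both genes of the bZIP loop thus had reproducible peaks, while Clk, their target, had none.

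Other parts of the kinase and phosphatase machinery carried reproducible peaks. CkIIbeta, the regulatory subunit of casein kinase 2, had a summit of 127 at 23 bp from its TSS, where CkIIalpha had none. The PP2A subunit genes mts, tws and wdb had strongest summits of 193, 126 and 213, and the mts summit also lay near the TSS of Rack1. The phosphatase gene Pp1-87B had 80.6, shared with NANS. nmo, a kinase that acts on PER, had 28 pooled entries and no IDR summit.

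Among ubiquitin pathway and other regulators, slmb, the F-box gene that targets PER, had 141, shared with CG5793. The only summit of ctrip, a ubiquitin ligase gene that acts on CLK, lay at the TSS of Gmppb with 90.8. The coactivator gene nej had 229, 185 and 147, with the strongest near lncRNA:CR42657, and kay, an AP-1 gene, had 358. The nuclear receptor gene Eip75B had 6 summits from 112 to 415, the strongest 16 bp from a TSS. The translational regulators tyf and Atx2 had 114 and 84.4, and the tyf summit also lay near Tip60. norpA, the phospholipase C of light input, had an entry stronger than any in the 10 genes, an intronic summit 2372 bp into the gene with 884, at pooled rank 46 and at ranks 49 and 44 in replicates 2 and 3, and a neighbour of 93.5. Cul3, Usp8, Hr51 and lark had pooled entries and no IDR summit, and the neuropeptide gene Pdf and its receptor gene Pdfr had 0 pooled entries.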

How the data were processed

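The members and all gene and motif lists were chosen with earlier results of these data known. Peak lists on dm6 were used, and those on dm3 were not used here. Per the deposited notes, the authors called relaxed lists for replicate 2, replicate 3 and the pooled alignments, each against 1 control alignment that was not analysed here, and derived the IDR list from them. The name and version of the aligner and the peak caller, and the IDR threshold, were not given in the sources used here. Each signal value is a score deposited by the authors on the caller's scale, used only to rank and filter within a list. The −log10 q deposited by the authors is 3.914 for every IDR peak. Of the IDR intervals, 4 are listed again with another summit, and were kept. Read depth is unknown. Intervals on shares cover counting error only. Chromatin was sheared to 200 to 800 bp, per the labels, which limits how finely a summit places a site.

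Summits (1-based) were assigned with Ensembl release 115 genes and Release 6 sequence from RefSeq, using Python 3.11.15, pandas 2.3.3, numpy 2.4.6 and scipy 1.17.1. A summit within 500 bp of an own TSS counted as TSS-proximal, one over 500 bp from every TSS as distal. An entry within 200 bp counted as the same in another list. Length classes, 10 of equal size, split all 13945 protein-coding genes by length. Intervals are exact Clopper-Pearson at 95%. Genes named are the 10 members, the other clock genes, genes with a TSS within 500 bp of a member summit, and 5 genes like sgg, taken by symbol order. Genes at the nearest IDR summit and the AGGTGGCGC search were added after their values were seen. Summit assignment was tested on simulated data with 200 planted summits, all recovered. How separate the 2 libraries are beyond their labels is not given. Alternatives were other TSS windows, spans, list sizes, single replicates and a wider motif window.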

Additional observations from a re-analysis of the deposited data

How the results depend on the processing

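cwo, dco and sgg each had at least 1 summit in the span under all 10 alternative settings, though not the same summits. With the gene body alone 6 summits were left, and the share of all genes with one was 11%, against 13.5% without summits near a TSS of another gene and 16.7% with the 2022 strongest IDR peaks. That share was 42.2% with the 8090 strongest pooled entries. The count of clock genes with a TSS summit fell to 1, sgg, with a TSS window of 250 bp, where the share of all genes was 16%, and stayed at 2, dco and sgg, under the other settings. The count of summits in the spans was 4 with the 2022 strongest IDR peaks and 11 with the 8090 strongest pooled entries, where a larger or smaller list gives other counts by construction. With the 4045 strongest entries of a single replicate list, it was 6 without replicate 2 and 9 without replicate 3, while the counts of genes were 2 with a TSS summit, 3 with a span summit and 2 with a distal one either way. cyc joined as a 4th gene with any base of the peak interval, where the share of all genes was 28.8%, and with 5000 bp upstream, where it was 35.2%. dco joined the genes with a distal summit, then 3, with 250 bp, where the share of all genes was 10.1%, and with 8090 entries, where it was 14.2%. GAGAG was in 42.9% of the clock IDR windows at 400 bp, against 14.3% at 200 bp, where all IDR windows gave 44.5% and 23.3%, and the other motifs stayed at 0 of 7. In the 43 clock windows below the list, the 400 bp width gave 1 with an E-box, against 5.68% of all, 2 with a PAR-type site (4.65%, against 2.81%), 1 with the Zelda letters, against 2.37%, and 4 with AP-1, against 8.08%. No paired analysis was possible because there is 1 group. Unknown depth limits every statement that a gene had no entry.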
